A study of Mus musculus with 4 samples.

Results

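The cells described here are endothelial cells of the mouse aorta in which no transcript of Gpihbp1 was counted. Gpihbp1 encodes the capillary protein that carries lipoprotein lipase to the vessel lumen. A barcode was taken when it held at least 500 genes, under 10% mitochondrial UMIs (unique molecular identifiers, each standing for 1 captured transcript), at least 3 UMIs of Pecam1 plus Cdh5 and 0 of Gpihbp1. It also had to hold fewer than 5 UMIs of Myh11, fewer than 2 of Prox1 plus Flt4 plus Ccl21a, and 0 each of Ptprc, Pdgfra and Itga2b, which mark smooth muscle, lymphatic, blood, fibroblast and platelet cells. The rule found 1014 of the 31081 barcodes in the files, and 25593 barcodes passed the gene and mitochondrial filters. Because these genes chose the cells, their levels are given as a description and support nothing.

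Cells of the aortic arch and of the descending thoracic aorta were profiled by droplet single-cell RNA sequencing from the 5ʹ end of transcripts, in mice of 16 to 20 weeks. Control mice carried CNC-SMC-Cre;R26-tdT, and conditional knockout (cKO) mice carried CNC-SMC-Cre;Smad4flox/flox;R26-tdT, so the driver and the reporter allele were shared by all groups. The driver is named for smooth muscle, and no label states whether endothelial cells recombine. Each genotype in each region was 1 library, 4 in all.

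The endothelium of a large artery forms a continuous lining that senses blood flow, and it releases nitric oxide, prostacyclin and endothelin to the smooth muscle beneath it. It lies on elastic tissue and contributes matrix to it. Capillary endothelium of heart, muscle and fat takes up fatty acids instead, through Gpihbp1, Cd36 and Fabp4. Smad4 is the shared partner of the receptor-activated Smads, and in endothelium BMP and TGF-beta ligands act through it on genes such as the Id factors, Smad6 and Smad7.

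For the genes that set the chosen cells furthest apart from Gpihbp1-rich endothelium (described below), 4 promoters are shown, 2 of genes higher in the Gpihbp1-free cells and 2 of genes lower. Each is the 250 bases before the annotated start in RefSeq on build GRCm38.p6, written 5ʹ to 3ʹ on the gene's strand. Capitals mark AGGAAG or its reverse complement CTTCCT, the core bound by ETS factors, and CACCC or its reverse complement GGGTG, the core bound by Krüppel-like factors. The regions are chr5:37735269-37735518 for Cytl1, chr7:43780804-43781053 for Klk10 and chr11:84957504-84957753 for Car4, on the plus strand, and chr14:79301636-79301885 for Rgcc, on the minus strand.
Cytl1: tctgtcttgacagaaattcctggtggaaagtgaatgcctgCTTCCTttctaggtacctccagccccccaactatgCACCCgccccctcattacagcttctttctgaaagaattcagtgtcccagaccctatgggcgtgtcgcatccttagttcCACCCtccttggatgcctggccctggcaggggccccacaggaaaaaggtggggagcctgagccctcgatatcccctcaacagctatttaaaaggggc
Klk10: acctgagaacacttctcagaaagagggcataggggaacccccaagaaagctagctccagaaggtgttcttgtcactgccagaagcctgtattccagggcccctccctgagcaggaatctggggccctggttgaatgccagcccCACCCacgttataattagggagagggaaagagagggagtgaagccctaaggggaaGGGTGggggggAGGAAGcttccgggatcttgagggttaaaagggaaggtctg
Car4: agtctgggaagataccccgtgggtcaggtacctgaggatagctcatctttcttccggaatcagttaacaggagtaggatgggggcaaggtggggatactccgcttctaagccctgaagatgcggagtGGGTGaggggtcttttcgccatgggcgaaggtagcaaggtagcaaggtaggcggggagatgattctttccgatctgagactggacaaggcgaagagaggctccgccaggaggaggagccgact
Rgcc: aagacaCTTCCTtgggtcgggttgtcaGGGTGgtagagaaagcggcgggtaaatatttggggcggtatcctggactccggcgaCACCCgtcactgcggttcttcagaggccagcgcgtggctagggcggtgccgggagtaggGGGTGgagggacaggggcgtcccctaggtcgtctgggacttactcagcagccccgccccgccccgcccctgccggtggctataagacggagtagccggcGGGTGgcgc
AGGAAG matched 1, 1, 0 and 1 time in Cytl1, Klk10, Car4 and Rgcc, and CACCC matched 2, 2, 1 and 4 times. Of 32851 RefSeq promoters of that length, 29.5% held AGGAAG and 52.0% held CACCC on either strand, and the motifs do not overlap each other. A match is a description and not a binding site.

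The cKO arch library held fewer such cells than the other 3. The cKO arch library gave 78 cells (1.34% of its kept barcodes, 95% interval 1.06 to 1.66), and the control arch library gave 419 (4.85%, 4.40 to 5.32). The cKO descending library gave 317 (5.37%, 4.81 to 5.98), and the control descending library gave 200 (3.84%, 3.34 to 4.40). The intervals of the other 3 lie within 3.34 and 5.98%. With the libraries taken in that same sequence, endothelium with at least 3 Gpihbp1 UMIs made up 0.80, 1.74, 7.85 and 7.22% of kept barcodes. Lymphatic cells made up 0.56, 0.89, 2.03 and 1.48%, so these shares were lowest in the cKO arch too. Leukocytes made up 21.55, 4.72, 7.95 and 9.22%, and a larger leukocyte share lowers all other shares. Whether the low share is particular to the chosen cells was not tested. Intervals are exact binomial for shares and exact Poisson or conditional for UMI sums, and they cover counting error only, because no group has a replicate. Genotype and region cannot be told apart from differences between single libraries, and the labels do not state how many animals a library pools.

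Among all barcodes that met the endothelial gates whatever their Gpihbp1 count, cells without Gpihbp1 made up 78 of 140 (55.7%, 47.1 to 64.1) in the cKO arch and 419 of 606 (69.1%, 65.3 to 72.8) in the control arch. They made up 317 of 849 (37.3%, 34.1 to 40.7) in the cKO descending and 200 of 628 (31.8%, 28.2 to 35.7) in the control descending library. Both arch shares lay above both descending shares. No barcode of a chosen cell occurred in another library's chosen cells.

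**Figure D1:**
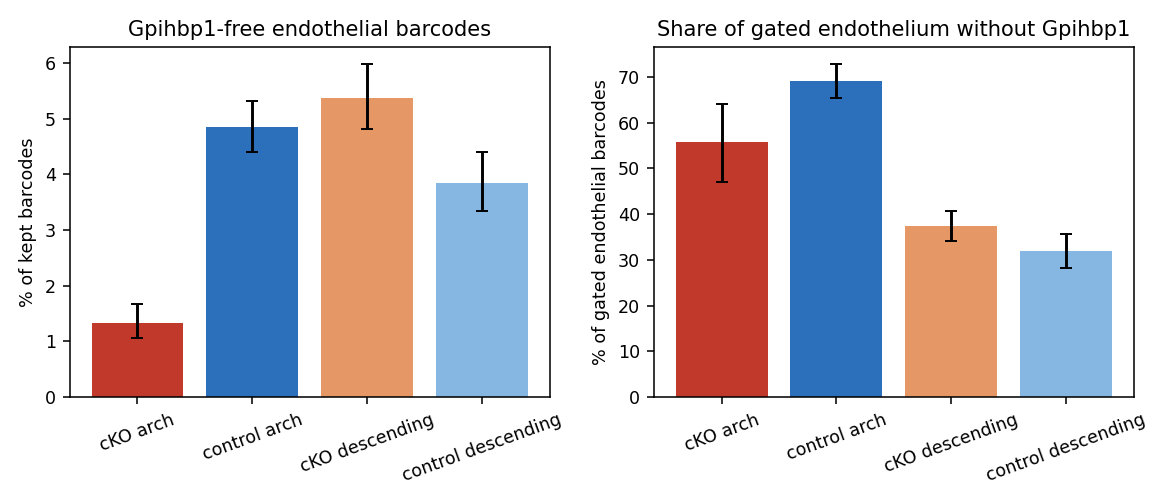
Endothelial barcodes without Gpihbp1 as a percent of kept barcodes (left) and of all gated endothelial barcodes (right), by library, with exact 95% binomial intervals. The cKO arch has the lowest bar on the left (1.34%), and on the right both arch libraries (55.7 and 69.1%) stand above both descending ones (37.3 and 31.8%).

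Several features of the libraries bear on every comparison below. The chosen cells held medians of 5894, 4556, 4096 and 2978 UMIs and totals of 614062, 2496030, 1850746 and 988121 UMIs for cKO arch, control arch, then cKO and control descending cells, the order used for values from here on. The cKO arch file was counted against a feature list of 28693 entries and the others against 32285. The Y-linked gene Ddx3y had 34 UMIs, in 25 of 419 cells, in the control arch and 0 in the other 3 libraries, while Xist was present in all. Clock genes also set the control arch apart, as described with the regions. Since each comparison rests on 1 library a side, none of these libraries can be left out of one.

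The endothelial label held for the markers the rule did not use. Vwf, the clotting factor carrier stored in endothelial granules, stood at 988, 1538, 2476 and 2337 CPM. CPM is a gene's share of all UMIs counted in the chosen cells of a library, scaled to the same total in each. Tie1, an endothelial receptor, stood at 261, 372, 387 and 441 CPM, and Egfl7, a secreted endothelial protein, at 482, 804, 908 and 1008 CPM. At least 1 of these 3 genes was detected in 88.5, 91.7, 95.3 and 92.5% of the cells, against 1.60, 8.29, 4.31 and 2.46% of T cells, whose median depths were 3620, 3940, 4687 and 5320 UMIs. Thinned to 2000 UMIs per cell, Vwf was detected in 71.2, 79.3, 85.3 and 76.3% of the cells and in 0, 0, 0.885 and 0% of T cells, and unthinned in 83.3, 82.6, 80.4 and 71% of the cells. In 74 of the 1014 cells none of the 3 was detected.

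At the edge of the rule, 81 members held exactly 3 UMIs of Pecam1 plus Cdh5, and 64.2% of them had 1 of the 3 markers, against 57.4% of the 148 barcodes with 2 UMIs that fell outside. The 105 barcodes with 1 Gpihbp1 UMI, also outside, had a Cytl1 level of 1760 CPM and a Vwf level of 2055 CPM. The members had 6331 and 1906 CPM, and the 67 barcodes with 3 Gpihbp1 UMIs had a Cytl1 level of 46.5 CPM. Barcodes with 1 Ptprc, Pdgfra or Itga2b UMI numbered 23, 79 and 23.

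Taken as a whole, the chosen cells had more transcripts of a large-artery lining than Gpihbp1-rich endothelium, and fewer of a fatty-acid-handling capillary. They were set beside 1036 gated endothelial barcodes with at least 3 Gpihbp1 UMIs. This contrast is the one the rule makes, so it is described without a test and nothing is read from its counts. Of 6051 genes measured, 406 (6.71%) were at least 2-fold higher in the Gpihbp1-free cells in all 4 libraries and 329 (5.44%) at least 2-fold lower in all 4. Higher in all 4 were 15 of 17 measured genes of a large-artery intima list, and lower in all 4 were 19 of 20 measured genes of a capillary and lipid-handling list.

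Cytl1, which encodes a small secreted protein, had 4226, 8771, 4694 and 4542 CPM in the Gpihbp1-free cells and 8.22, 10.2, 59.4 and 17.9 CPM in the Gpihbp1-high cells. Klk10, a kallikrein-family protease gene, had 250.8, 404, 220.5 and 135 CPM against 0, 0, 2.85 and 0.871 CPM. Gkn3 had 127, 378, 789 and 1287 CPM against 4.11, 1.28, 2.03 and 9.14 CPM. Other genes far on this side were Pthlh, Col4a4, Sfrp1, Ctsh, Plek2, Ptprj, Adh7 and Enpp6. Clu, an extracellular chaperone on the intima list, had 2829, 4822, 2667 and 3174 CPM against 74.0, 197, 64.3 and 49.6 CPM.

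Car4, a membrane-bound carbonic anhydrase of capillaries, had 0, 8.01, 6.48 and 21.2 CPM in the Gpihbp1-free cells and 765, 1240, 828 and 1154 CPM in the Gpihbp1-high cells. Fabp4, a fatty acid carrier, had 448, 351, 1171 and 1750 CPM against 26030.5, 28383, 23165 and 25429 CPM. Rgcc, Cd300lg, Cxcl9, Kcna5, Aqp7, Tcf15, Gpr160, Timp4, Rbp7, Tmem182 and Slc1a1 were the other genes furthest on this side. Ratios against a group with 0 UMIs rest on the added 0.5 UMI and are drawn, not quoted. Within other lists, 7 of 13 haemostasis genes and 6 of 21 TGF-beta and BMP target genes were higher in all 4 libraries. Of 18 vasoactive genes 7 were higher and 3 lower, and of 19 angiogenic receptor genes 1 was higher and 7 lower.

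**Figure D2:**
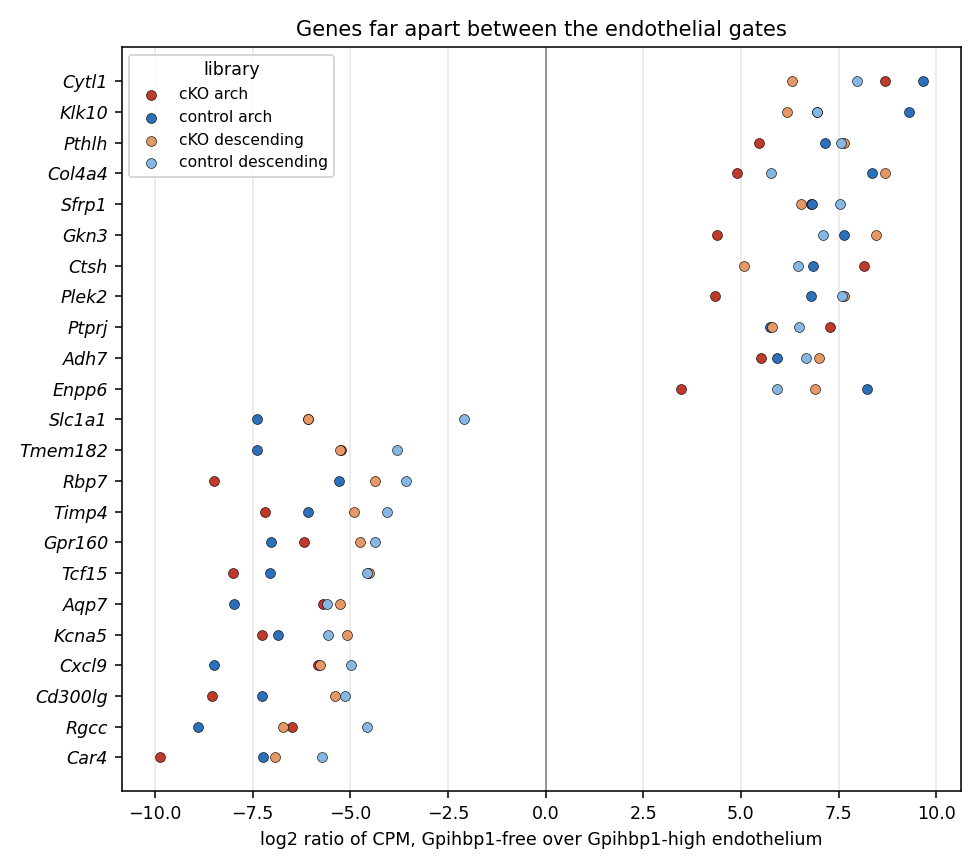
Log2 ratio of CPM in Gpihbp1-free over Gpihbp1-high endothelium for genes far on each side, 1 point per library, with 0.5 UMI added to each sum. All 4 points of every gene lie on 1 side of 0, from Cytl1 (4226 to 8771 CPM in the Gpihbp1-free cells) at the top to Car4 (0 to 21.2 CPM) at the bottom.

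The chosen cells were not uniform. Clustering gave 9 groups, of which clusters 0 (323 cells) and 3 (136 cells) carried the large-artery intima markers and were called intima-like. Together they held 49, 199, 148 and 63 cells, with medians of 6227, 6999, 6204 and 7357 UMIs. Cluster 0 was led by Nkx2-3, Bcan, Isl1, Wnk4 and Twist1, and cluster 3 by Ptgs2, Adra2a, Igf2 and Chrm3. Cluster 0 held 39 of the 49 intima-like cells in the cKO arch and 185 of 199 in the control arch. In the descending libraries cluster 3 held 78 of 148 and 34 of 63.

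Cluster 4 (106 cells) was venous-like and was led by Ackr1, Lrg1, Nrp2 and Nr2f2, the venous identity factor. Cluster 2 (144 cells), with high Alpl, Ssu2, Slc6a6 and Jag2, had close capillary and arterial scores (2.94 and 2.87) and stayed unnamed. Its Sox17 level was 941 CPM, and Sox17 is a factor of arterial identity. Cluster 5 (58 cells) was led by Hmcn1, Cdh11, Hand2 and Postn, and 57 of its cells came from the control arch. Its top scores were for fibroblasts (2.595, 4 of 4 markers in at least 10% of cells) and endocardial or valve cells (2.29, 5 of 8 markers). Whether it is a cell type or a trait of that library was not tested. Cluster 1 (164 cells) had a median of 1714 UMIs and its top scores were for macrophages and platelets, although only 1 of 5 macrophage markers and 0 of 3 platelet markers were in at least 10% of its cells, against 8 of 8 intima markers. Cluster 6 (53 cells) scored highest for fibroblasts. Clusters 5 and 7 (25 cells, led by Igfbp5 and Ackr4) and these last 2 stayed unnamed, and cluster 8 held 5 proliferating cells led by Ube2c and Top2a. The capillary gene Fabp4 had 3897, 4440 and 2937 CPM in clusters 2, 4 and 7, and 135 to 491 CPM in the others.

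Of the chosen cells in each library, cluster 0 made up 50, 44.2, 22.1 and 14.5%, cluster 3 made up 12.8, 3.34, 24.6 and 17%, cluster 2 made up 3.85, 7.88, 17.7 and 26%, and cluster 4 made up 5.13, 2.62, 19.9 and 14%. These shares describe the makeup of each library only. Genes that define several clusters differed between libraries, so cluster sizes are not compared. Each main difference below was also measured in the intima-like cells alone, as the mean of per-cell CPM, which gives every cell the same weight, and after thinning to 3000 UMIs per cell. Where a setting ended the call of a gene described in detail, a value under such a setting is given. The list scores that named the clusters used the genes that were clustered.

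**Figure D3:**
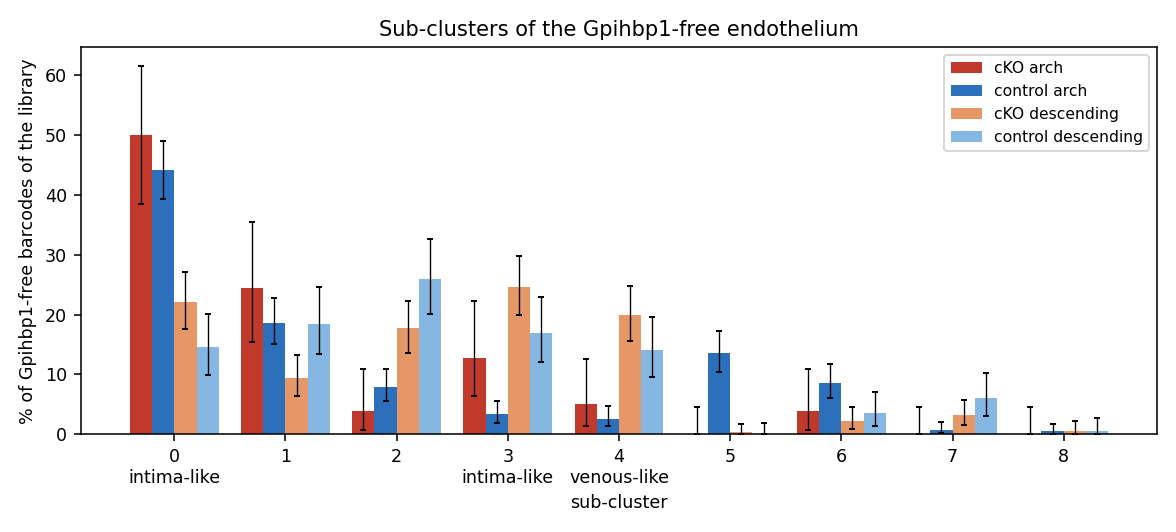
Percent of each library's Gpihbp1-free barcodes in each of 9 sub-clusters, with exact 95% binomial intervals; clusters 0 and 3 are intima-like and cluster 4 venous-like. Cluster 5 is filled almost wholly by the control arch (57 of 58 cells), and the arch libraries hold most of their intima-like cells in cluster 0.

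Posterior Hox genes, transcription factors that record position along the body axis, were lower in arch than in descending endothelium, as were several arterial genes. A gene was counted as different when it differed at least 2-fold with a 95% counting interval of the ratio clear of 0, among genes with at least 50 UMIs over both libraries and 30 CPM in 1 of them. In control mice 149 of 6041 genes (2.47%) were higher and 295 (4.88%) lower in the arch, 7.35% in either direction. In cKO mice 280 of 5840 (4.79%) were higher and 518 (8.87%) lower, 13.7% in either direction. The control and cKO comparisons share no library. Of 5483 genes measured in both, 39 (0.711%) were higher in the arch in both genotypes, 98 (1.79%) were lower in both, and 16 differed in opposite directions.

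Among the posterior Hox genes, 3 of 4 measured were lower in the arch in control mice (median log2 ratio -2.11, all genes -0.11) and 3 of 4 in cKO mice (-1.82, all genes -0.06). Hoxa7 had 21.2 and 6.41 CPM in the cKO and control arch and 64.8 and 63.8 CPM in the cKO and control descending cells. Hoxa9 had 16.3 and 15.6 CPM in the arch libraries against 71.9 and 61.7 CPM. The arch levels of both lay below both descending levels. The log2 ratio of Hoxa9 was -1.98 (-2.60 to -1.38) in control and -2.08 (-3.23 to -1.22) in cKO mice. The mean of per-cell CPM gave -0.66 for Hoxa7 in cKO mice. Hoxb7 had 3.26 and 0.801 CPM against 43.8 and 32.4 CPM, with only 2 UMIs in each arch library. Of the anterior Hox genes 2 were measured and none was called in either genotype (medians -0.47 and -0.28).

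Several signalling genes were also lower in the arch in both genotypes. Jag2, a Notch ligand, had 11.4 and 16.8 CPM in the cKO and control arch and 75.7 and 111 CPM in the descending cells. Adra2a, an adrenergic receptor gene, had 14.7 and 21.6 CPM against 97.3 and 110.3 CPM. Vegfc, a lymphatic and vascular growth factor, had 16.3 and 29.7 CPM against 89.7 and 95.1 CPM. Each of these 3 was at least 3-fold apart in both genotypes, and in the intima-like cells the log2 ratios were -2.66 and -2.83 for Jag2, -2.70 and -3.11 for Adra2a and -2.25 and -2.34 for Vegfc in control and cKO mice. In cluster 0 alone Vegfc gave -0.14 in control mice.

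Gkn3 was lower in the arch as well, with log2 ratios of -1.77 (-1.89 to -1.65) in control and -2.63 (-2.98 to -2.31) in cKO mice. Sema3g, a secreted semaphorin of arteries, had 74.9 and 68.5 CPM in the arch against 176 and 273 CPM. Lama3, a laminin chain, had 17.9 and 21.2 CPM against 44.3 and 84.0 CPM. In these 3 genes, too, both arch levels lay below both descending levels. Lama3 gave -0.67 and -0.84 in cluster 0 alone in control and cKO mice, and Sema3g gave -0.21 after thinning in cKO mice. Of an arterial list, 6 of 18 measured genes were lower in the arch and none higher in control mice (median -0.81), and 4 of 16 were lower and 1 higher in cKO mice (median -0.62). The large-artery intima list went both ways, with 1 of 17 higher and 4 lower in control mice (median 0.08) and 2 higher and 2 lower in cKO mice (median -0.14). Of 22 pan-endothelial genes 3 were lower in the arch in control and 6 in cKO mice, and none was higher.

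Capillary and venous genes were also lower in the arch, and some of them were not in the intima-like cells. Of the capillary and lipid list, 8 of 12 were lower and 1 higher in control mice and 6 of 10 lower and 1 higher in cKO mice, but in the intima-like cells 1 of 5 was lower and 1 higher in each genotype. Over all genes in the intima-like cells, 185 of 5671 were lower and 157 higher in control mice. In cKO mice 328 of 5003 were lower and 215 higher there. Of the venous list, 3 of 10 were lower and 1 higher in control mice and 5 of 11 lower and 1 higher in cKO mice. Fabp4 had log2 ratios of -2.32 and -1.39 and Cd36, a fatty acid receptor, -2.0 and -1.44 in control and cKO mice. T cells, with the libraries in the order above, had 45.6, 67.9, 89.0 and 268 CPM of Fabp4, so the control difference was seen in them too. Fabp4 was detected in 25.6, 47.5, 61.5 and 91.5% of the chosen cells and 13.8, 35.5, 35.3 and 71.3% of T cells. Cd36 was detected in 11.5, 14.6, 33.4 and 37.5% of the chosen cells and 4.17, 5.07, 6.90 and 14.8% of T cells. The part of free RNA in these results was not tested. Nr2f2 had -2.31 and -1.32, but -1.14 and 1.30 in the intima-like cells, and Nrp2, a venous and lymphatic co-receptor, had -2.37 and -1.47 but -0.04 and 0.77 there. Neither gene was called in the intima-like cells. Sparcl1, a matrix protein, had -1.59 and -1.47, and in cluster 0 alone the ratios were 0.34 and 1.78. Upk3b, a mesothelial marker, was lower in the arch, but 64.7 and 86.6% of its UMIs in the control and cKO descending cells came from 1 cell each.

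Cdkn1a, Dlx5 and Vcam1 were among the genes higher in the arch in both genotypes. Cdkn1a, the cyclin-dependent kinase inhibitor p21, had 418 and 262 CPM in the cKO and control arch and 44.3 and 52.6 CPM in the descending cells. Its log2 ratio was 2.30 (1.91 to 2.75) in control and 3.23 (2.88 to 3.62) in cKO mice, and 2.55 in cKO mice without the cell that held 46.3% of its UMIs. In the cKO arch Cdkn1a was detected in 34.6% of the chosen cells (22.7% thinned to 2000 UMIs) and in 40.7% of T cells (30.03% thinned). Its share there was not above that of T cells. In the control arch it was detected in 48.7% of the chosen cells (31.1% thinned) and 9.22% of T cells (4.06% thinned). T cells of the cKO and control descending libraries had it in 6.03 and 4.92% of cells. The parts of free RNA and of expression in T cells in these shares were not tested. Dlx5, a homeobox gene, had 40.7 and 59.3 CPM against 13.5 and 10.1 CPM. The arch levels of both genes lay above both descending levels, although Dlx5 in cKO mice gave 0.53 in cluster 0 alone.

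Vcam1, which tethers leukocytes, had 933 and 532 CPM in the arch and 305 and 227 CPM in the descending cells. Of the adhesion and inflammation list, 3 of 13 were higher and 1 lower in control mice, and 6 of 17 higher and 2 lower in cKO mice. The chemokine gene Cxcl1 had 91.2 and 53.3 CPM against 32.4 and 12.1 CPM. In the intima-like cells the Vcam1 ratio was 1.64 in cKO mice but 0.55, under the 2-fold line, in control mice. Tmem45a had 63.5 and 125 CPM against 14.6 and 15.2 CPM, Ccdc68 had 50.5 and 45.3 CPM against 13.5 and 7.08 CPM, and Chn1 had 44.0 and 36.5 CPM against 16.2 and 5.06 CPM. Mt2, a metallothionein, had 249 and 103 CPM against 21.6 and 29.3 CPM, and Pthlh, a parathyroid hormone-related peptide, had 89.6 and 90.5 CPM against 40.0 and 40.5 CPM. Dkk3 was called in both genotypes (1.85 and 1.59), but its ratios in the intima-like cells were 0.34 and 0.41, and in cluster 0 alone -0.30 and -0.35. In control mice thinning gave 0.78 for Ccdc68 and 0.77 for Cxcl1, and the intima-like cells gave 0.88 for Mt2. Pthlh gave 0.50 in cKO mice at 1000 genes and under 5% mitochondrial UMIs.

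Of 19 TGF-beta and BMP target genes, 7 were higher in the arch and none lower in cKO mice (median 0.33), and in control mice Cdkn1a alone was higher (median -0.05). The cKO comparison shares its arch library with the genotype comparison given further on. In cKO mice 5 of 6 smooth muscle markers were also higher in the arch, and their part in these results was not tested.

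**Figure D4:**
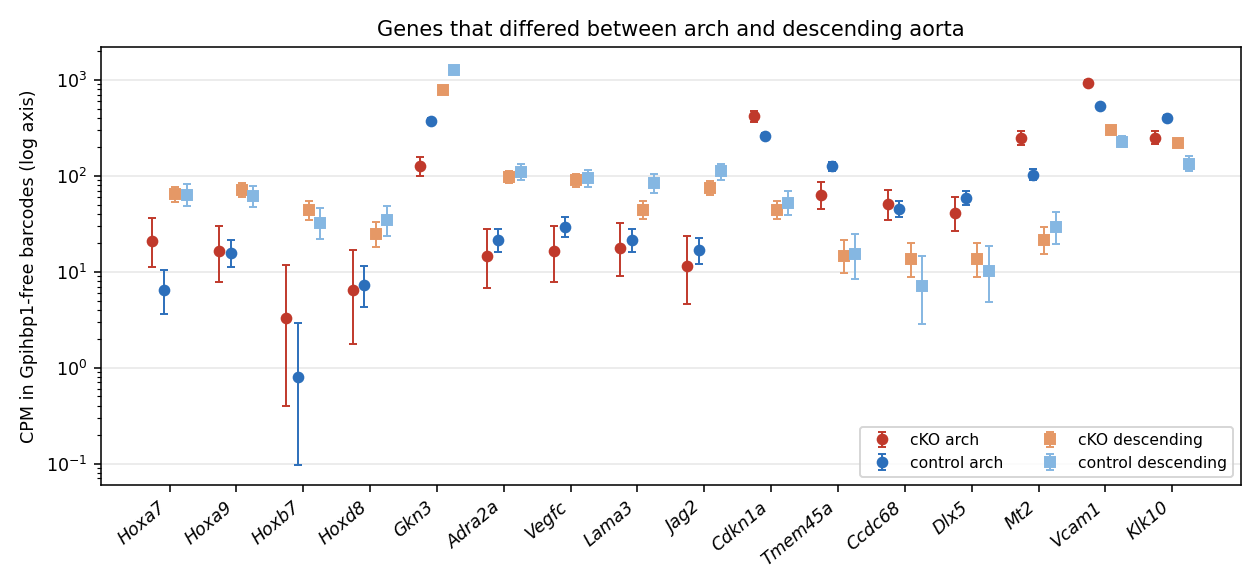
Levels of 16 genes in Gpihbp1-free endothelium by library, in CPM on a log axis, with exact 95% Poisson intervals; circles are arch and squares descending libraries. The Hox genes shown, Gkn3, Adra2a, Vegfc, Lama3 and Jag2 lie lower in both arch libraries, and Cdkn1a to Vcam1 lie higher.

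Some arch genes differed between regions in control mice and not in cKO mice by the same measure, and that difference between genotypes was not tested. Isl1, a factor of the second heart field, had 78.9 CPM in the control arch and 19.2 CPM in the control descending cells (log2 ratio 2.00, 1.36 to 2.80), with 50.5 and 41.6 CPM in the cKO cells. In cluster 0 alone the Isl1 ratio was 0.58. Hand2, known from outflow tract development, had 97 UMIs in control arch cells and 0 in the control descending cells, at least 12.8-fold higher. Its level was 235.5 CPM in cluster 5, which came almost wholly from that library, and 9.74 CPM in cluster 0. The intima-like cells held 25 UMIs of it against 0, under the 50 needed for a call, and the lower bound of the log2 interval was 1.03. Smooth muscle cells of the 2 libraries had 1788 and 6 UMIs of it. Tbx20 had 81 UMIs against 2 (log2 ratio 3.69, 2.10 to 7.07), with 153 CPM in cluster 5. The intima-like cells held 14 UMIs against 1 (1.65, -0.54 to 7.58). Tbx20 was also higher in control arch fibroblasts, smooth muscle cells and Gpihbp1-high endothelium (log2 ratios 6.41, 2.03 and 5.95). Klk10 was higher in the control arch (1.58, 1.32 to 1.86), and Lrrn1 had 138 UMIs there against 2 (4.46, 2.89 to 7.83).

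The fibulin genes Fbln5 and Fbln2 were lower in the control arch than in the control descending cells, and elastin was not. Fbln5, which tethers elastin to cells, had 783 against 1617 CPM (-1.05, -1.14 to -0.95) and Fbln2 had 703 against 1900 CPM (-1.43, -1.53 to -1.34). Eln, elastin, had 2124 against 2003 CPM (0.085, 0.010 to 0.16), and -0.59 in the intima-like cells. The Fbln5 ratio was -1.70 in the intima-like cells, and the mean of per-cell CPM gave -0.84. Dll4, an arterial Notch ligand, was lower (-1.56) and Dll1 higher (1.11) in the control arch. The ratio of Dll4 was 0.67 in cluster 0 alone. Ifit1 (50.9 against 4.05 CPM), Isg15 and Rtp4 were higher in the control arch, 3 of 15 interferon genes with none lower, while in cKO mice 3 of 15 were higher and 4 lower. Fibroblasts and smooth muscle cells of the control libraries differed alike in Ifit1 (log2 ratios 3.17 and 3.20, against 3.49 in the chosen cells). The part of free RNA in it was not tested.

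The clock genes split the control arch from every other library. Dbp had 187, 8.01, 264 and 297 CPM, Nr1d1 had 182, 20.8, 144 and 134 CPM, and Nr1d2 had 81.4, 12.4, 135 and 126 CPM, each lowest in the control arch. Arntl, which peaks in antiphase to them, had 9.77, 51.3, 0.54 and 3.04 CPM, highest in the control arch. Of 13 measured clock genes 9 were lower and 2 higher in the control arch than in the control descending cells (median -1.5), among them Hlf (-3.11) and Per3 (-2.92). Smooth muscle cells moved with them, with Dbp at 179.7 CPM in the cKO arch and 10.1 CPM in the control arch, and fibroblasts had 171 and 12.6 CPM. The part of these differences in the arch comparisons was not tested.

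Smad4, the floxed gene, had similar summed levels in the chosen cells of all 4 libraries, but its share of cells at equal depth was lowest in the cKO arch. It had 97.7 CPM (74.6 to 126) in the cKO arch, 95.7 CPM (84.0 to 109) in the control arch, 99.96 CPM (86.1 to 115) in the cKO descending and 104 CPM (85.1 to 126) in the control descending cells. The 4 intervals overlap. The files do not say whether 5ʹ UMIs of Smad4 fall outside the floxed part, so these levels and shares do not check recombination. Of its direct targets, Id1 had 199, 173, 200.5 and 237 CPM, Id3 had 1407, 1505, 1399 and 1131 CPM, Smad6 had 96.1, 119.8, 97.8 and 97.2 CPM and Smad7 had 192, 143, 224 and 221 CPM. No one of these 4 was 2-fold apart between genotypes in either region.

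In the arch, the cKO endothelium had more transcript of matrix and TGF-beta target genes and of leukocyte-attracting proteins than the control endothelium. It had less of some other genes, among them Gja5 and Calcrl. Of 5727 genes measured, 251 (4.38%) were higher and 357 (6.23%) lower, 10.6% in either direction. In the intima-like cells 202 of 5462 genes were higher and 317 lower, and 6 of 18 TGF-beta and BMP target genes were higher (median 0.58, all genes -0.01). Of 19 such target genes measured in all the chosen cells, 6 were higher and none lower (median 0.43, all genes -0.04). Among them were Fn1, Ccn2, Ccn1, Ltbp2 and Tgfbi, known from TGF-beta responses of matrix-forming cells, while the Id genes, Smad6 and Smad7 were not called. Of 19 ligand, receptor and Smad genes only Tgfb2, a TGF-beta ligand, was higher (129 against 46.9 CPM, log2 ratio 1.46, and 0.35 in cells with Myh11 at 0).

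Fn1, fibronectin, had 4115, 629, 916 and 1145 CPM (log2 ratio 2.71, 2.62 to 2.80). Of its UMIs in the cKO arch 49.6% came from 1 cell, and without that cell the ratio was 1.81. Fn1 was detected in 80.8 and 67.5% of the chosen cells of the cKO and control arch (69.7 and 50.5% thinned to 2000 UMIs) and in 46.8 and 14.3% of T cells (31.1 and 10.2% thinned). Ccn2, a matricellular protein, had 1143, 279, 240.4 and 356 CPM (2.03), with 40.0% from 1 cell and 1.5 without it. Ccn2 was detected in 61.5 and 23.2% of the chosen arch cells (36.4 and 19.4% thinned) and in 49.4 and 17.1% of T cells (29.0 and 7.11% thinned). The T cell shares of both genes moved with the difference, and the part of free RNA in it was not tested. Ltbp2, which binds microfibrils, had 147, 36.9, 13.0 and 22.3 CPM (1.99, and 3.99 in the intima-like cells), and Ccn1 had 1117, 506, 559 and 523 CPM (1.14, 1.01 to 1.28). In each of these the cKO arch was the highest library. Thinning gave 0.88 for Ccn2, and the mean of per-cell CPM gave 0.67 for Ccn1. Tgfbi had 119 against 30.4 CPM (1.97), but 67.1% of its UMIs came from 1 cell, and without that cell the ratio was 0.65. With at least 6 UMIs of Pecam1 plus Cdh5 it was -0.12.

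Basement membrane chains went both ways in the cKO arch, with 5 of 22 matrix genes higher and 2 lower (median 0.14). Col8a1, a short-chain collagen of vessel walls, had 228, 44.5, 172 and 281 CPM, so that the control arch was the low library. Col18a1 had 427 against 123 CPM (1.79, 1.55 to 2.03) and Col4a2 had 282 against 102 CPM (1.46, 1.18 to 1.75). The collagen IV chains Col4a3 and Col4a4, which assemble together, were lower, at 22.8 against 128 CPM (-2.44, -3.37 to -1.72) and 60.2 against 209 CPM (-1.78, -2.32 to -1.32). Lamb1 was called higher (1.49), with 50% of its UMIs from 1 cell and a ratio of 0.77 without it and of -0.12 as the mean of per-cell CPM. Removal of the highest doublet scores gave 0.95 for Col18a1, and the mean of per-cell CPM gave 0.93 for Col4a2.

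Leukocyte recruitment genes were higher in 5 of 16 and lower in 1 of 16 (median 0.67). Ccl2, the monocyte chemokine, had 435 CPM in the cKO arch, from 9 of 78 cells, against 6.01, 1.08 and 3.04 CPM (log2 ratio 6.13, 5.43 to 7.04). Of its UMIs in the cKO arch 40.8% came from 1 cell. Its level there was 0.418 of the highest among smooth muscle cells, fibroblasts and leukocytes. Fibroblasts and smooth muscle cells differed in the same direction (1.80 and 5.09), and the part of free RNA was not tested. Ccl2 was detected in 11.5 and 1.43% of the chosen cells of the cKO and control arch (9.09 and 0.971% thinned) and in 6.41 and 1.38% of T cells (4.44 and 1.02% thinned). Cxcl12 had 296, 82.9, 116 and 115 CPM (1.84), and Sele, the endothelial selectin, had 61.9, 20.0, 2.16 and 2.02 CPM (1.63, 0.98 to 2.27). Cxcl2 had 222 against 4.81 CPM (5.47), but gave no call in the intima-like cells (3.64). Spp1 had 318 against 7.21 CPM, and fibroblasts of the cKO arch library had 10313 CPM of it, so the part of free RNA in that result was not tested. Ackr3, a scavenging receptor for Cxcl12, was the lower one, at 176 against 440.3 CPM (-1.32). As the mean of per-cell CPM, Cxcl12 gave 0.66 and Ackr3 -0.93.

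Growth factor and surface genes were also among the higher ones. Pdgfb, the ligand that recruits mural cells, had 104, 29.7, 81.6 and 96.1 CPM (1.82, 1.31 to 2.32), so its control arch level was below the other 3. Mcam, an adhesion protein, had 130.3, 33.3, 38.4 and 37.4 CPM (1.97, 1.51 to 2.43) and was highest in the cKO arch. Nrg1, an ErbB ligand, had 53.7, 9.62, 6.48 and 3.04 CPM (2.48), with 57.6% of its UMIs from 1 cell and a ratio of 1.46 without it. Gja1, connexin 43, had 57.0, 12.4, 15.1 and 20.2 CPM (2.20). The mean of per-cell CPM gave 0.57 for Pdgfb, 0.73 for Mcam and 0.62 for Gja1, all under the 2-fold line.

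Of the vasoactive list, 4 of 16 measured genes were lower and 1 higher in the cKO arch (median -0.51). A lower median was not particular to this list. The pan-endothelial median was -0.60, with 1 of 21 lower and 0 higher, and the angiogenic receptor median -0.51, with 2 of 15 lower and 0 higher. The arterial list went neither way, with 1 of 14 lower and 1 higher (median -0.01, all genes -0.04), and in the intima-like cells 1 lower and 2 higher (median 0.08). Gja5, connexin 40, had 117, 328, 288 and 321 CPM (-1.48, -1.85 to -1.14). Tek, the angiopoietin receptor, had 205, 523, 441 and 487 CPM (-1.34, -1.63 to -1.09), and Calcrl, the receptor subunit for adrenomedullin, had 71.7, 218, 349.6 and 274 CPM (-1.59, -2.08 to -1.16). Jam2, a junction protein, had 119, 303, 496 and 398 CPM (-1.34), and Ptgs1, cyclooxygenase 1, had 104, 284, 281 and 303 CPM (-1.43). In these 5 genes the cKO arch was the lowest library. The potassium channel genes Kcnn3 (-1.16) and Kcnn4 (-1.12) were lower too. In the intima-like cells the 7 ratios ran from -1.14 to -1.63. After thinning they were under 2-fold for Tek (-0.73), Jam2 (-0.91), Ptgs1 (-0.70), Kcnn3 (-0.06) and Kcnn4 (-0.34), while Gja5 and Calcrl stayed past it.

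Some other genes lower in the cKO arch were high in the control arch in particular. Dll1 had 58.6, 183, 77.3 and 84.0 CPM (-1.62, -2.17 to -1.15) and Cytl1 had 4226, 8771, 4694 and 4542 CPM (-1.05, -1.11 to -0.99), with the control arch the highest library for both. Lrrn1 had 0 UMIs in the cKO arch against 138 in the control arch, at least 11.3-fold lower, with 4 UMIs in the cKO descending and 2 in the control descending cells. Gkn3 was lower as well, at 127 against 378 CPM (-1.57), but its descending levels of 789 and 1287 CPM lay above both arch levels. Thinning gave -0.64 for Dll1 and -0.70 for Cytl1. Of 21 pan-endothelial genes 1 was lower and none higher (median -0.60).

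Markers of other cells moved with this comparison. The summed level of 7 smooth muscle genes was 5558, 1549, 805 and 1051 CPM in the chosen cells, 3884, 1041, 693 and 749.5 CPM in the intima-like cells and 689, 924, 396 and 345 CPM in leukocytes, with none of the 7 at 0. Of 6 measured, 4 were higher in the cKO arch, among them Tagln (2827 against 518 CPM, 51.6% from 1 cell) and Acta2 (1915 against 655 CPM). Their log2 ratios were 2.45 and 1.55, and after thinning -0.52 and -0.77. The summed macrophage list was 427, 154, 42.1 and 961 CPM, and 66.5, 53.0, 26.9 and 44.3 CPM in the intima-like cells. The fibroblast list summed to 1443, 3638, 1286 and 1397 CPM. The part of these cells in the results was not tested.

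Arg1 had 195 UMIs in 6 cells of the cKO arch, 55.4% of them from 1 cell, and 0 in the control arch, at least 264-fold higher. In the intima-like cells Arg1 had 3 UMIs against 0. Ppbp and Hmox1 drew 57.0 and 47.0% of their UMIs from 1 cell, and Arg1, Ppbp and Hmox1 gave no call in the intima-like cells. These genes are known from macrophages and platelets. Tonsl (117 against 0.801 CPM), Ptp4a1 and Taf6l were higher, and Fam89b and Fbxl7 lower, in the cKO arch. They differed in the same direction in smooth muscle cells and fibroblasts, and the cKO arch was counted against another annotation. For the clock genes, 4 of 10 were higher and 2 lower in this comparison, among them Dbp (4.52) and Arntl (-2.28).

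**Figure D5:**
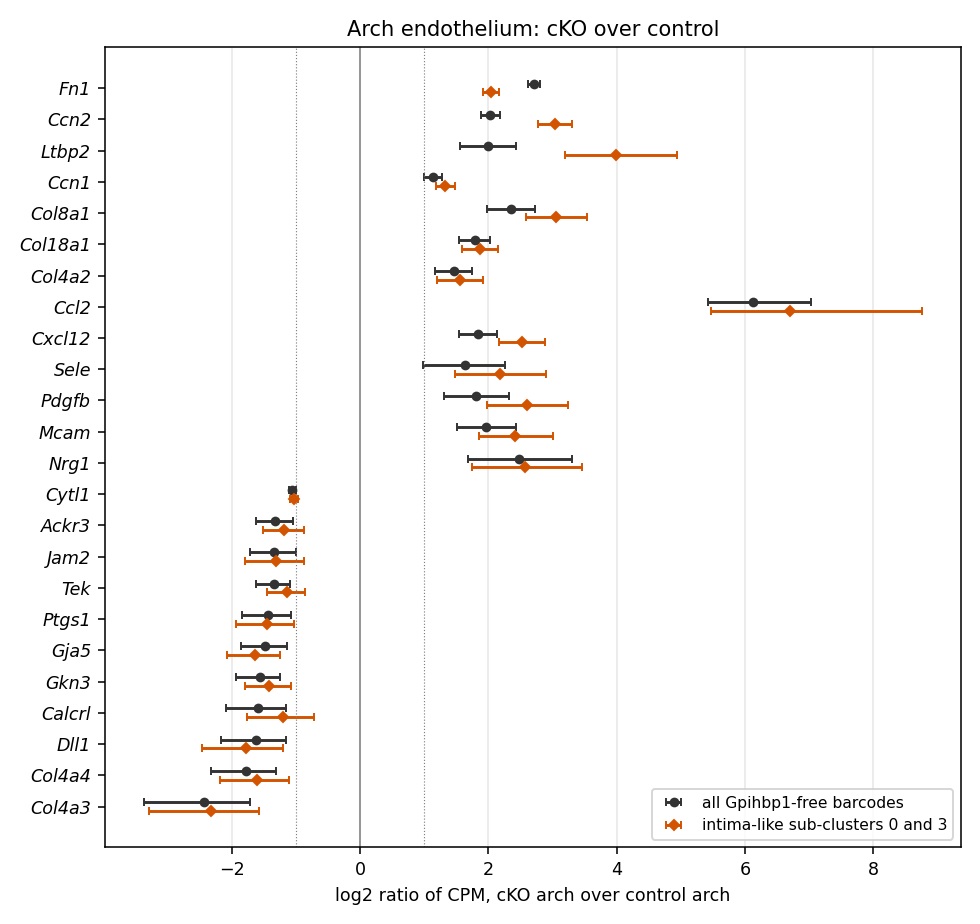
Log2 ratio of CPM in cKO over control arch endothelium without Gpihbp1, with exact 95% counting intervals, for all such barcodes (black) and the intima-like sub-clusters (orange); dotted lines mark 2-fold. Ccl2 (6.13 and 6.70) lies furthest to the right and Col4a3 (-2.44 and -2.31) furthest to the left.

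In the descending aorta fewer genes separated the genotypes. Of 5985 measured, 38 (0.635%) were higher and 110 (1.84%) lower in the cKO cells, 2.47% in either direction. None of 17 TGF-beta and BMP target genes was called in either direction (median -0.25, all genes -0.09). Fn1 had 916 and 1145 CPM in the cKO and control descending cells. The 2 descending libraries held 317 and 200 chosen cells against 78 and 419 in the arch, and the difference between regions was not tested.

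Of 13 antigen presentation genes 5 were higher in the cKO descending cells and none lower (median 0.40). Markers of other cells went both ways between these libraries. A macrophage list summed to 42.1 CPM in the cKO and 961 CPM in the control descending cells, with 4 of 4 measured genes lower. In the intima-like cells its sums were 26.9 and 44.3 CPM. Schwann and mesothelial lists were also lower in sum, at 22.15 against 182 CPM and 179 against 255 CPM. A lymphocyte list summed to 28.1 CPM in the cKO and 1.01 CPM in the control descending cells, and was 0 in the intima-like cells of both. An erythroid and platelet list summed to 1362 and 453 CPM (210 and 251 CPM in the intima-like cells), with 4 of 5 genes higher and 1 lower. Of 12 antigen presentation genes measured in the intima-like cells, 4 were higher, against 46 of 5332 over all genes there. Cd74, the invariant chain of class II molecules, had 378, 307, 491 and 118 CPM (log2 ratio 2.05, 1.77 to 2.34), so the control descending library was the low one. H2-Aa had 250.2 against 72.9 CPM (1.77, 1.42 to 2.16) and H2-Ab1 had 179.9 against 72.9 CPM (1.30, 0.93 to 1.69), and H2-DMa and H2-DMb1 were higher by 1.44 and 1.47. In the intima-like cells the Cd74 ratio was 3.55. The mean of per-cell CPM gave 0.54 for H2-Ab1, Myh11 at 0 gave 0.86 for H2-DMa, and thinning gave 0.94 for H2-DMb1. Leukocytes of the 2 libraries had 15114 and 11057 CPM of Cd74. Cd74 was detected in 24.8 and 13.7% of the chosen cells of the cKO and control descending libraries after thinning to 2000 UMIs (30.3 and 22.5% unthinned), and in 5.31 and 10.8% of T cells (13.8 and 19.7% unthinned).

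Other genes higher in the cKO descending cells were Igtp, an interferon-induced GTPase (1.67), Coch (207 against 59.7 CPM, 1.78), Arsj (47.0 against 4.05 CPM, 3.38) and Stbd1, a glycogen-binding protein (50.2 against 3.04 CPM, 3.83). Stbd1 was also higher in cKO descending smooth muscle cells (2.18) and fibroblasts (2.76). Ube2c and Cenpf were also called, with 79.2 and 76.5% of their cKO UMIs from 1 cell, and the mean of per-cell CPM gave 0.17 and 0.81. With Myh11 at 0 Coch gave 0.98. Among the genes lower were 4 known from fat synthesis and storage, a group chosen after its values were seen. Scd1, a fatty acid desaturase, had 44.8 against 370.4 CPM (-3.04, -3.41 to -2.70), Fasn, fatty acid synthase, had 36.7 against 281 CPM (-2.93, -3.34 to -2.55), and Thrsp (-3.48) and Cidea (-5.53, 2 UMIs against 61) were lower as well. In the intima-like cells Scd1 and Fasn gave -2.28 and -2.09. Other cells of the 2 libraries differed alike, with Scd1 at 16.4 against 138 CPM in smooth muscle cells, 72.5 against 188 CPM in fibroblasts and 33.4 against 273 CPM in leukocytes. Fasn had 31.3 against 149, 41.0 against 152 and 35.0 against 257 CPM there. Thrsp had log2 ratios of -3.23 in fibroblasts and -1.80 in smooth muscle cells, and Cidea -3.24 and -1.28. Of the fixed lipid lists, 2 of 12 capillary and lipid genes and 2 of 16 lipid uptake and caveolae genes were lower, and none higher. An adipocyte list summed to 24.3 CPM in the cKO and 253 CPM in the control descending cells, and its part in these results was not tested.

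The genotype comparisons of the 2 regions share no library. Of 5272 genes measured in both, none was higher in cKO cells in both regions (0%), 13 (0.247%) were lower in both, and 18 differed in opposite directions. In the intima-like cells 7 were higher and 8 lower in both, of 4968. Named among the lower ones, Col4a3 had 22.8, 128, 42.7 and 94.1 CPM (log2 ratios -2.44 in the arch and -1.14 in the descending cells). Rnaset2b had 34.2, 143, 4.86 and 65.8 CPM (-2.03 and -3.69), and Fgl2, a secreted prothrombinase, had 99.3, 219, 82.1 and 239 CPM (-1.13 and -1.54). Both control levels lay above both cKO levels for these 3 genes. In the descending cells the mean of per-cell CPM gave -0.91 for Col4a3, and thinning gave -0.42 for Fgl2.

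Scd1 (-1.41 in the arch) and Fasn (-1.09) were lower in the arch as well, with 24.4 against 66.9 CPM and 17.9 against 39.7 CPM. Spock2, a testican, had 11.4, 34.0, 15.1 and 34.4 CPM, and Nrep had 19.5, 40.9, 45.9 and 93.1 CPM. In the arch the mean of per-cell CPM gave -0.34 for Scd1, the intima-like cells gave -0.71 for Fasn and -0.49 for Spock2, and thinning gave 0.10 for Nrep. In the descending cells thinning gave 0.38 for Spock2. Rnaset2b was also lower in smooth muscle cells and fibroblasts of the cKO libraries, at 32.6 against 64.7 CPM in arch smooth muscle and 3.19 against 36.0 CPM in descending smooth muscle.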

How the data were processed

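Aortic cells were freed with collagenase, strained and cleared of red cells, and libraries were made with a 10x Chromium 5ʹ kit, per the labels' protocols. Reads were counted on mm10 with Cell Ranger 6.1.1, per the submitters' processing notes, while the matrix headers name 6.1.2. The authors deposited raw UMI counts per gene and barcode, and the sources used here do not name the filters that preceded deposit. The analysis used the 27734 gene identifiers shared by all 4 files. Groups follow the labels. The members, gene lists and comparisons were chosen with earlier results of these data known.

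UMIs of the chosen cells were summed per library and divided by those cells' total over shared genes, as CPM (counts per 1e6 UMIs). Log2 ratios added 0.5 UMI, with exact 95% conditional intervals; with 1 library per group no test was run and no p-value is given, and a fit pooling the other factor as additive was not run. A group at 0 was given a floor of 3 UMIs. Called genes were at least 2-fold apart with the interval clear of 0, at 50 UMIs and 30 CPM or more; the Gpihbp1 contrast needed 200 UMIs. Named genes were, for each comparison, the 10 highest and 10 lowest called genes, 8 in each direction called alike in both genotypes or regions, 12 on each side of the Gpihbp1 contrast and 4 members of each of 39 lists furthest from 0. This left out the selection genes and mitochondrial, ribosomal, haemoglobin, immune receptor and sex-linked genes. Genes under 0.25 of their level in smooth muscle cells, fibroblasts or leukocytes of that library were left out of the highest and lowest. Ddx3y and Xist, and values given to show the libraries' state, were chosen after seeing the data.

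Chosen cells were clustered with scanpy 1.11.5 and leidenalg 0.10.2 (2000 variable genes, 20 principal components, 15 neighbours, resolution 0.5, no batch integration), and clusters were named from marker lists. Shares of cells with a UMI were also taken after thinning to 2000 UMIs. Doublets were scored with Scrublet, whose automatic threshold called 0.0856, 3.49, 2.08 and 0.903% of barcodes; no doublet was removed from the main values, and removal of the highest scores at 0.8% per 1000 barcodes was an alternative. Scripts were tested on simulated data. Promoters were matched by symbol, and 19 of 24 genes of the Gpihbp1 contrast had one. Some genes that the naming rule picks are not reported here.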

Additional observations from a re-analysis of the deposited data

Results flagged for a closer look

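A feature named RFP, listed only in the cKO arch file and used in no comparison, had 291 UMIs in the 78 chosen cells of that library. It was present in 69 of them (88.5%, 79.2 to 94.6), and 2.56% held at least 16 UMIs, against 32.3% of smooth muscle cells, 40.2% of fibroblasts and 0.477% of leukocytes. At least 1 RFP UMI was seen in 71.7% of leukocytes of that library.

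Some genes were called in opposite directions under the same contrast, and no difference between these contrasts was tested. Arsj was higher in the arch than in the descending cells in control mice (3.04) and lower in cKO mice (-4.28). By genotype it was lower in the cKO arch (-3.94, 1 UMI against 93) and higher in the cKO descending cells (3.38, 87 UMIs against 4). Pf4, a platelet chemokine, was lower in the control arch than in the control descending cells (-1.81) and higher in the cKO arch than in the cKO descending cells (5.29). By genotype it was higher in the cKO arch (5.01, with 57.7% of its UMIs from 1 cell) and lower in the cKO descending cells (-2.10), and it was not called in the intima-like cells of either region.

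Lamb1 was higher in the cKO arch than in the control arch (1.49) and lower in the cKO than in the control descending cells (-1.04). Coch was lower in the cKO arch (-1.26) and higher in the cKO descending cells (1.78).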

How the results depend on the processing

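No paired analysis was possible because the labels give no replicate numbers and each group holds 1 library, so no replicate could be left out; a fit over all 4 libraries with genotype and region as additive terms was not run. Under the alternatives, 160 gene-by-comparison results gave 2158 values, of which 2006 were still 2-fold with an interval clear of 0, 137 were not and 15 reversed. An alternative that left a gene under 20 UMIs gave no value. The intima-like cells alone, all cells without sub-clusters 1 and 6, and each gene without its richest cell were chosen after seeing the data; "largest" below means sub-cluster 0 alone, and "thinned" means 3000 UMIs per cell.

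Counts moved with the floor on low genes, given first without a CPM floor and then at 100 UMIs and 50 CPM, and with the settings named after it. For cKO over control arch, 251 higher became 420 and 131, and 357 lower became 687 and 202. Thinning gave 102 higher and 236 lower, and leaving out the richest cells gave 127 higher. For the descending genotype, 38 higher became 125 and 18, and 110 lower became 285 and 36. There the mean of per-cell CPM gave 114 and 208, thinning 25 and 59, and Myh11 at 0 gave 60 higher. Lower genes numbered 39 (largest), 52 (intima-like) and 61 (without richest cells). For arch over descending in controls, 149 higher became 337 without the floor, and 295 lower became 588 and 145, then 165 (thinned), 149 (largest) and 185 (intima-like). In cKO mice 280 higher became 488 and 153, then 163 (Myh11 at 0), 114 (thinned) and 145 (without richest cells). The 518 lower became 897 and 299, then 208 (thinned), 198 (largest) and 328 (intima-like). For genes alike in both genotypes, 39 higher became 75 and 22, then 22 (Myh11 at 0) and 20 (thinned). The 98 lower became 174 and 56, then 47 (thinned), 34 (largest) and 49 (intima-like). For genes higher in cKO cells of both regions, the count of 0 became 1 with median-of-ratios scaling and with 6 UMIs of Pecam1 plus Cdh5, 2 with Myh11 at 0, 3 with the highest Scrublet scores removed, thinned, and without clusters 1 and 6, 4 with per-cell CPM, 7 in the largest and in the intima-like clusters, and 10 without the floor. The 13 lower in both became 31 and 7, then 8 (intima-like) and 7 (without clusters 1 and 6). The Gpihbp1 contrast, thinned, gave 233 higher and 214 lower.

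The shares of kept barcodes moved with the gates. The cKO arch share of 1.34% was 1.90% thinned and 0.873% with Myh11 at 0. The control arch share of 4.85% was 4.11% at 1000 genes and 5% mitochondrial UMIs, 3.93% with 6 UMIs of Pecam1 plus Cdh5 and 3.38% with Myh11 at 0. The cKO descending share was 4.39 and 4.13% with the last 2 gates, and the control descending share was 3.31% thinned and 2.80 and 3.0% with those gates. In the largest cluster alone Dkk3 reversed in control (-0.30) and cKO mice (-0.35), Sparcl1 in both (0.34 and 1.78), and Dll4 (0.67) and Col8a1 (1.57) in control mice. For cKO over control arch, Tgfbi reversed with 6 UMIs of Pecam1 plus Cdh5 (-0.12), Tagln (-0.52), Acta2 (-0.77) and Nrep (0.10) when thinned, and Acta2 (-0.070) and Lamb1 (-0.12) with per-cell CPM, Lamb1 also with Scrublet (-0.10). In the descending aorta Lamb1 reversed with per-cell CPM (0.23) and Spock2 when thinned (0.38). The causes were not tested. Clusters numbered 9, 12 at resolution 1 and 8 when thinned, and 100 and 97.6% of the intima-like cells then stayed in clusters made mostly of them.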
